A study of Mus musculus with 5 samples.

Results

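The myogenic regulatory factors and their partners were followed in primary mouse myoblasts that had been kept for 72 h in differentiation medium. The 9 genes were Pax7, Pax3, Myf5, Myod1, Myog, Myf6, Mef2a, Mef2c and Mef2d, chosen by name from the 54232 genes of the expression table, and each was matched by its Ensembl identifier in GENCODE M21. Cells came from leg muscles of mice aged 6 to 8 weeks, either wild type (WT, n = 3) or homozygous for a point mutation in the inhibitory domain of ELMO2 (Elmo2EID/EID, EID in the labels, n = 2), a mutation that favours the open form of the protein. The mutation is a knock-in carried by every cell of the animal, and a point mutation cannot be checked in counts per gene. All mice were on a mixed C57BL6 and 129SV background. Myoblasts were isolated magnetically, with a satellite cell isolation kit and with beads against integrin alpha 7. The sex of the mice is not given in the sources used here. The study's general statement is that primary cells usually came from separate mice, but the labels do not give the animal of each sample, so that p-values measure the spread between these samples. Elmo2EID/EID cells are called mutant below. RNA was poly-A enriched and sequenced in bulk, and no undifferentiated culture was analysed here.

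Skeletal muscle is built by a relay of transcription factors. The paired-box factors Pax3 and Pax7 mark muscle progenitors and the satellite cells of adult muscle. The basic helix-loop-helix factors Myf5 and Myod1 commit cells to the muscle lineage, and Myog and Myf6 (also called MRF4) act later, when myoblasts leave the cell cycle and become myotubes. These factors bind E-boxes together with E proteins, and the MADS-box factors Mef2a, Mef2c and Mef2d bind AT-rich sites beside them on many muscle promoters. In what follows the first 4 genes are called early factors and the other 5 late factors.

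The Myog promoter is the textbook case of both kinds of site and is shown because Myog leads the late factors in abundance per kilobase of exon. The stretch of Myf5 is shown for comparison, since Myf5 spread more among the WT samples than any factor but Pax3. Both are the 250 bases before the RefSeq start on GRCm38.p6, read in the direction of transcription, with E-boxes (CANNTG) and a MEF2 site with free outer letters in capitals.
Myog, chr1:134289754-134290003, plus strand: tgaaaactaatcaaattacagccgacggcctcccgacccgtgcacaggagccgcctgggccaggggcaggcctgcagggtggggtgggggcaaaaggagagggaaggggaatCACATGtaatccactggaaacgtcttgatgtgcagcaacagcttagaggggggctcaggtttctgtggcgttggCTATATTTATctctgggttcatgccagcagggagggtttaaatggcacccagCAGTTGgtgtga
Myf5, chr10:107486135-107486384, minus strand: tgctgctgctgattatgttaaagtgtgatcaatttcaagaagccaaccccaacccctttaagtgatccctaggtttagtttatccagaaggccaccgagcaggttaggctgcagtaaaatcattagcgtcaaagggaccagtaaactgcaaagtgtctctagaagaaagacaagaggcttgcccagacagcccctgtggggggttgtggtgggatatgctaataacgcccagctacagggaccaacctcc
The Myog stretch held 2 E-boxes, 138 to 133 and 12 to 7 bases before the start, and the MEF2 match 64 to 55 bases before it. The Myf5 stretch held neither. Over all 32851 promoter stretches of this length, 66.2% held at least 1 E-box and 8.48% a MEF2 match of this kind, a looser form that was searched after the full consensus, which 2.92% held and Myog did not. Both motifs are palindromic, so that 1 strand covers both, and they did not overlap in Myog. Of the 9 factors 6 had an entry in the promoter table, with 8 promoters, and matches were found in those of Myog and Mef2c. The entry of Pax7 lies within the GENCODE gene and not before its start, so that it is no upstream stretch. Pax3, Myod1 and Myf6 had no entry. The GENCODE gene of Myog starts at 134289989, so that the end of its stretch lies in the first exon.

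Values are normalized counts, which are read counts scaled by a DESeq2 size factor for each library. Recovered totals ran from 35021856 to 49381544 reads, at which 3 reads correspond to 2.65 to 3.73 normalized counts. All 9 factors passed the filter, a value of 5 or more in any of the samples, as did 18156 genes in all. Per kilobase of annotated exon, the scale on which genes can be compared, Myog was the most abundant factor in WT cells with 32567 ± 1075 normalized counts per kb (SD, n = 3). It was followed by Myod1 (10318 ± 416), Myf6 (8460 ± 546), Mef2c (6059 ± 629), Mef2d (2975 ± 122), Mef2a (2241 ± 95.2), Myf5 (1554 ± 533), Pax7 (154 ± 9.58) and Pax3 (7.97 ± 5.20). Lengths are those of GENCODE M21, and the study counted reads on another annotation release, so that the gene models counted may differ in length. The ranges of neighbours in this order did not overlap among the WT samples. Mef2a and Mef2c carry long alternative exons, and over the longest coding transcript their WT levels were 5940 and 15168 normalized counts per kb, which moved Mef2c to second place and Mef2a above Mef2d (3297). In mutant cells Myf6 (10321 ± 1351 per kb, SD, n = 2) stood above Myod1 (9231 ± 82.0), and Myf5 (2498 ± 34.6) above Mef2a (1870 ± 68.7). Over the longest coding transcript mutant Mef2a was at 4958 normalized counts per kb and stood above Myf5, so that this order turns with the length used. All 5 samples thus carried far more RNA of the late bHLH factor Myog than of the progenitor factors.

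Among the 9 factors, Pax7 fell in Elmo2EID/EID myoblasts and was the only one to pass limma's test with Benjamini-Hochberg adjustment over all genes. No factor rose by this test, and 6 of the 9 had an unadjusted p under 0.05 by limma, against 15.2% of all tested genes. Over all tested genes 2.23% were called, 1.09% higher and 1.14% lower, and the members' count rests on 1 gene. Values of WT and mutant samples were fully separated for 7 of the 9 factors, 3 higher and 4 lower in the mutant, against 32.6% of all tested genes. The DESeq2 Wald test on recovered reads, the tool of the study, called 3 factors, Pax7, Pax3 and Mef2a, against 5.34% of all genes. The edgeR quasi-likelihood test called 1, Pax7, against 2.25%. Without WT replicate 1 limma called 0 of the 9, and its calls over all genes fell from 404 to 134. Without Elmo2EID/EID replicate 2, which leaves 1 mutant sample, the log2 fold change of Pax7 was -1.12.

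**Figure D1:**
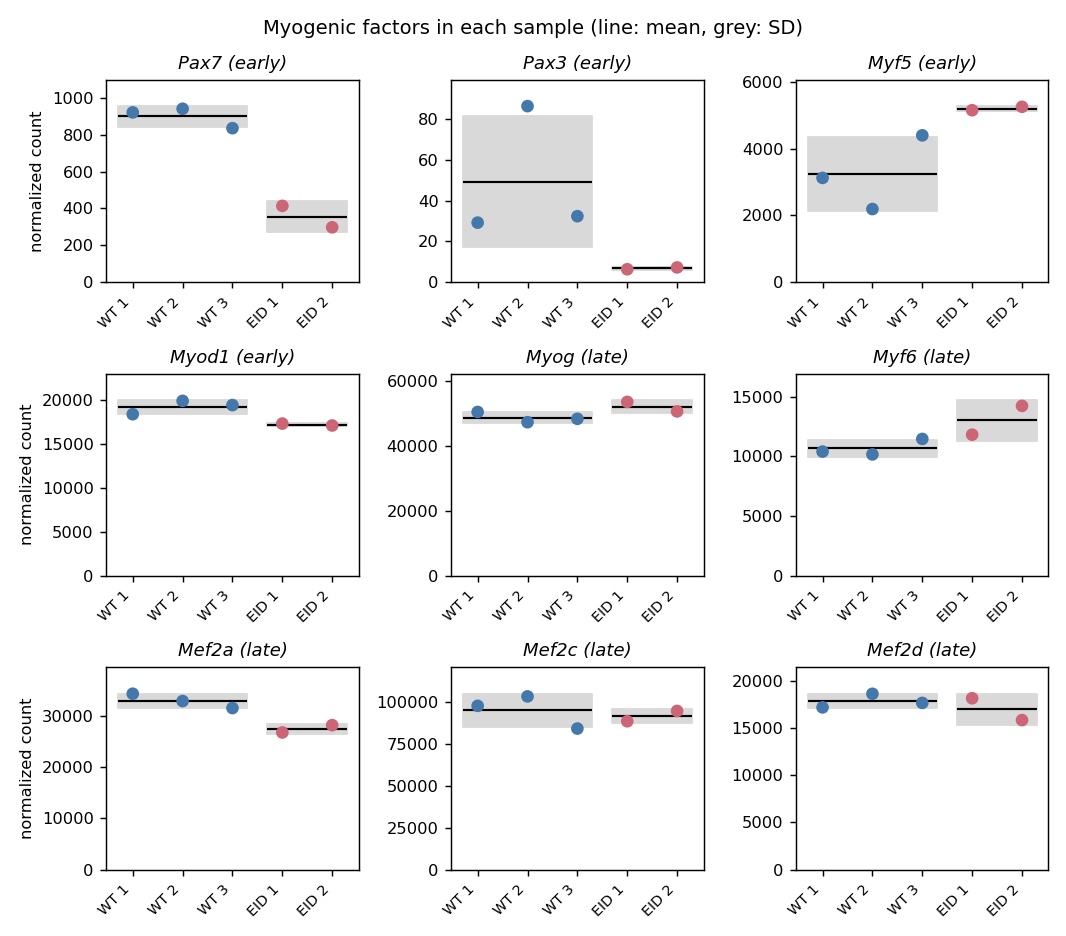
Normalized counts (vertical axis, linear from 0) of the 9 factors in each sample (horizontal axis), with WT in blue and Elmo2EID/EID in red. The line is the group mean and the grey band the SD. Pax7 lies between 837 and 942 in WT and at 414 and 298 in Elmo2EID/EID, whereas Mef2c and Mef2d overlap between the groups.

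Pax7 (ENSMUSG00000028736, chromosome 4, 139737062 to 139833528, minus strand), which maintains satellite cells, had 922, 942 and 837 normalized counts in WT and 414 and 298 in mutant myoblasts. The WT samples lay close together, both mutant samples were far below them, and the ratio of mutant to WT means was 0.395. The log2 fold change was -1.35 (standard error 0.15, 95% interval -1.71 to -1.001, limma adjusted p = 0.00764 after Benjamini-Hochberg). Adjusted p-values were 9.11e-13 in the DESeq2 Wald test and 0.00747 in edgeR. The call was lost without WT replicate 1 (log2 fold change -1.34, adjusted p = 0.0506 by limma) and without Elmo2EID/EID replicate 2 (-1.12, adjusted p = 0.0711 by limma), and in a fit without the mean-variance trend (adjusted p = 0.0760 by limma). In bulk RNA, fewer Pax7-positive cells and less Pax7 RNA per cell cannot be told apart.

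Pax3 (ENSMUSG00000004872, chromosome 1, 78101267 to 78197134, minus strand), the paralogue of Pax7 best known from the embryonic somite, was the rarest factor. It had 29.2, 86.4 and 32.3 normalized counts in WT and 6.26 and 7.17 in mutant samples, the latter from 7 and 8 reads. The groups did not overlap, and WT replicate 2 was well above the other WT samples. The log2 fold change was -2.53 (standard error 0.50, 95% interval -3.72 to -1.33, limma adjusted p = 0.0616), just short of the threshold, and -2.04 without WT replicate 2. The DESeq2 Wald test called it, with an adjusted p of 0.00183.

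Myf5 (ENSMUSG00000000435, chromosome 10, 107482908 to 107486134, minus strand), the first of the bHLH factors to appear in the embryo, lay on the other side. Both Elmo2EID/EID samples (5152 and 5254 normalized counts) were above every WT sample (3122, 2188 and 4399), but WT values spread over a 2.01-fold range. The log2 fold change of 0.74 (standard error 0.26, 95% interval 0.13 to 1.35) did not pass (limma adjusted p = 0.237), and it ran from 0.49 to 0.99 as each sample was left out in turn. A limma fit with replicate numbers as a block, to which WT replicate 3 adds nothing, did call Myf5 (0.99, adjusted p = 0.0490). Thus, of the early factors, the paired-box genes were at lower values and Myf5 at higher values in the mutant cells, with a ratio of Myf5 to Pax7 per kb of 9.52, 6.53 and 14.8 in WT and 35.005 and 49.7 in the mutant.

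Myod1 (ENSMUSG00000009471, chromosome 7, 46376474 to 46379099, plus strand), the founding member of the family, was slightly lower in both mutant samples. It had 18352, 19867 and 19388 normalized counts in WT and 17287 and 17072 in mutant myoblasts. The groups did not overlap, and the log2 fold change was -0.16 (standard error 0.06, 95% interval -0.31 to -0.01, limma adjusted p = 0.2995).

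Of the 5 late factors 0 passed limma's test, 2 had an unadjusted p under 0.05 (15.2% of all genes), DESeq2 called 1 (5.34%) and edgeR 0 (2.25%). A missed threshold does not show that values were alike, so the interval of each difference is given. Myog (ENSMUSG00000026459, chromosome 1, 134289989 to 134292548, plus strand), which is needed for terminal differentiation, had 50441, 47286 and 48336 normalized counts in WT and 53544 and 50612 in mutant cells. The lower mutant sample stood just above the highest WT sample, and the log2 fold change was 0.10 (95% interval -0.07 to 0.26, adjusted p = 0.583 by limma). Myf6 (ENSMUSG00000035923, chromosome 10, 107492853 to 107494737, minus strand), the most abundant of the family in adult muscle, had 10412, 10175 and 11470 normalized counts in WT and 11828 and 14242 in mutant cells. Its groups did not overlap either, but the mutant samples differed from each other by more than the WT samples, and the log2 fold change of 0.28 (standard error 0.10, 95% interval 0.05 to 0.51) had an adjusted p of 0.236 by limma. Myf5 and Myf6 are neighbours on chromosome 10, separated by 6718 bases, and the values of both were highest in Elmo2EID/EID replicate 2.

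Of the 3 Mef2 genes, which had negative log2 fold changes, Mef2a differed most and the others overlapped between the genotypes. Mef2a (ENSMUSG00000030557, chromosome 7, 67231163 to 67372858, minus strand) had 34303, 32869 and 31508 normalized counts in WT and 26743 and 28170 in mutant cells. Every mutant sample was below every WT sample, with a log2 fold change of -0.26 (standard error 0.07, 95% interval -0.42 to -0.10). This did not pass by limma (adjusted p = 0.132) and did by the DESeq2 Wald test (adjusted p = 0.0141). In Mef2c (ENSMUSG00000005583, chromosome 13, 83504034 to 83667080, plus strand) the groups overlapped, with 97858, 103499.9 and 84274 normalized counts in WT, 88654 and 94793 in mutant cells, and a difference on the log2 scale of -0.05 (95% interval -0.30 to 0.20, adjusted p = 0.876 by limma). Mef2d (ENSMUSG00000001419, chromosome 3, 88142372 to 88172086, plus strand) overlapped as well, with 17172, 18608 and 17644 against 18137 and 15826 normalized counts and a difference on the log2 scale of -0.07 (95% interval -0.26 to 0.12, adjusted p = 0.744 by limma). The signs of Mef2c and Mef2d turned when WT replicate 2 or mutant replicate 2, respectively, was left out (0.014 and 0.027). Reads per gene do not separate the muscle-specific splice forms of the Mef2 genes. Mef2a shares its strand and position with 2 predicted genes that reached at most 73.5 normalized counts.

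**Figure D2:**
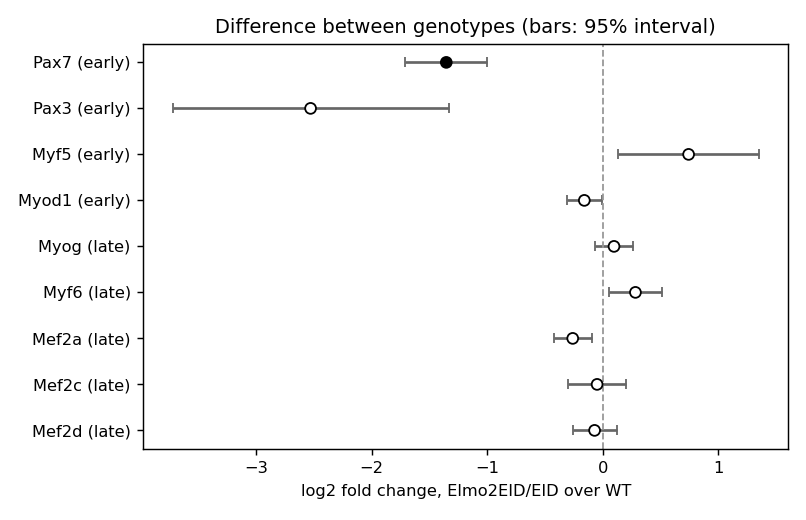
Log2 fold change of Elmo2EID/EID over WT (horizontal axis) for each factor, with 95% intervals from limma. The filled point, Pax7 at -1.35, passed an adjusted p of 0.05, and the intervals of Myog, Mef2c and Mef2d include 0.

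To place each sample on the path from progenitor to myotube, the factors were compared with each other within a sample. Per kb, Myog stood above Myod1 by 3.42, 2.96 and 3.10 fold in WT and by 3.86 and 3.69 fold in mutant cells. Both mutant samples were higher on this ratio, by 0.26 on the log2 scale, with no overlap. Myog over Pax7 was 214, 197 and 226 fold in WT and 507 and 667 fold in mutant cells. Myog over Myf5 pointed the other way, with 22.5, 30.1 and 15.3 fold in WT and 14.5 and 13.4 fold in mutant cells. Myf6 over Myog and Mef2c over Myod1 overlapped between the genotypes.

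A late minus early index was also taken, the mean log2(normalized count + 1) of the 5 late factors minus that of the 4 early ones. It is a score over the chosen genes and has no test. The index was 4.80, 4.51 and 4.61 in WT and 5.41 and 5.52 in mutant cells, a difference of 0.82 against SDs of 0.15 and 0.07. Without the 3 least abundant factors, Pax3, Pax7 and Myf5, the difference was 0.16, and as a log2 ratio of summed counts it was 0.012. With those 3 left out the WT samples were between 0.65 and 0.77 and the mutant samples at 0.83 and 0.88, with Myod1 as the only early factor left. As a log2 ratio of sums the groups overlapped, with 3.23, 3.20 and 2.97 in WT and 3.12 and 3.17 in mutant cells. The order of the samples on the index therefore depends on how the factors are weighted, and most of the difference lay in Pax3 and Pax7. Their log2 fold changes of -2.53 and -1.35 raised the index, that of Pax3 with 7 and 8 reads in the mutant samples. Myf5 (0.74) lowered it. The late factors went in both directions, from -0.26 for Mef2a to 0.28 for Myf6. Without an undifferentiated culture none of the samples can be placed on a scale.

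**Figure D3:**
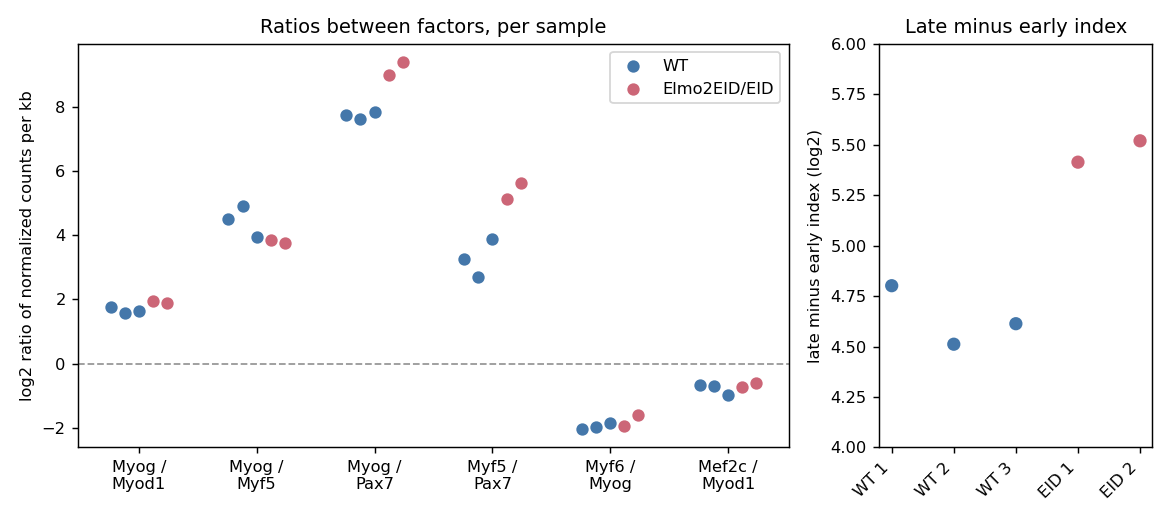
Left, log2 ratios of normalized counts per kb between pairs of factors (vertical axis) for each sample, with WT in blue and Elmo2EID/EID in red. Right, the late minus early index of each sample on a vertical axis that runs from 4 to 6, with WT between 4.51 and 4.80 and Elmo2EID/EID at 5.41 and 5.52.

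The genes around the factors were read from the same fit in 10 lists. Of 26 satellite cell and progenitor genes 25 were tested, 2 fell and 0 rose by limma (2.23% of all tested genes were called), with a median log2 fold change of -0.25 against 0.01 over all genes. At an unadjusted p under 0.05 limma had 13 of the 25 (15.2% of all genes), and edgeR called 2 (2.25%). Met, the receptor of hepatocyte growth factor, had 1754, 1810.4 and 1615 normalized counts in WT and 1165 and 922 in mutant cells (-0.73 ± 0.11 SE on the log2 scale, limma adjusted p = 0.0299). Sdc3, a heparan sulphate proteoglycan of satellite cells, had 2543, 2319.7 and 2539.6 against 1689 and 1749.9 normalized counts (-0.52 ± 0.07 SE on the log2 scale, limma adjusted p = 0.0197). For both genes every mutant sample was below every WT sample. Itga7, the antigen of the integrin beads, and Cdh15, an adhesion protein of myoblasts, were the most abundant of the list per kb. Their log2 fold changes of -0.25 and -0.29 did not pass. The summed list, in which Itga7 weighs most, was between 89933 and 97011 normalized counts in WT and between 79084 and 82007 in mutant cells. With equal weight for each tested gene the groups overlapped. The mean of log2 values centred per gene was 0.11, -0.13 and 0.10 in WT and -0.09 and 0.01 in mutant cells. The count of 2 became 0 without WT replicate 1 and 1 without WT replicate 2, where limma called 134 and 203 of all genes in place of 404. DESeq2 called 8 (5.34% of all genes), of which 6 were lower and 2, Eya4 and Meox2, higher. Of the 25 genes 18 had a negative and 7 a positive log2 fold change, and 10 were fully separated lower and 3 higher (32.6% of all genes were separated in either direction). Those 3 were Eya4 (0.26), a transcriptional cofactor, Cd34 (1.42), a surface protein that endothelial cells also carry, and Meox2 (2.87), a homeobox factor at no more than 52.0 normalized counts, and limma called none of them. Heyl, a Notch target, and Spry1, an inhibitor of growth factor signalling, had log2 fold changes of -1.48 and -0.40, which did not pass by limma (adjusted p = 0.0739 and 0.126) and did by the DESeq2 Wald test (adjusted p = 0.0332 and 0.0298). Eya4, Cd34, Meox2, Heyl and Spry1 were chosen after their values were seen.

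The partners and regulators of the factors gave no call by limma, which called 2.23% of all tested genes. The 3 E proteins Tcf3, Tcf4 and Tcf12 had log2 fold changes from -0.21 to -0.13, and each was lower in both mutant samples than in the lowest WT sample. In either direction 32.6% of all tested genes were separated in this way. The inhibitors (0 of 17 called, median -0.02) include Id1 and Id3, which sequester E proteins and had log2 fold changes of -0.27 and -0.02. The coactivators (0 of 20, median 0.06) include the chromatin remodeller Smarca4 and the methyltransferase Setd7, at -0.04 and 0.02. At an unadjusted p under 0.05, 7 of these 40 genes passed, a share near the 15.2% of all tested genes. The DESeq2 Wald test called 1 (5.34% of all genes), the repressor Snai2, which was named for that call, and edgeR 0 (2.25% of all genes).

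Downstream, 0 of 19 early differentiation targets were called by limma, with a median of -0.04 (1 at an unadjusted p under 0.05, 1 by DESeq2 and 0 by edgeR, against 15.2%, 5.34% and 2.25% of all genes). Embryonic myosin Myh3 and cardiac actin Actc1, the most abundant of them per kb, had log2 fold changes of -0.22 and -0.01. Of the 22 targets of mature fibres 1 rose and 1 fell by limma (2.23% of all genes were called), with a median of -0.03. At an unadjusted p under 0.05 limma had 3 (15.2% of all genes). DESeq2 and edgeR each called 2 (5.34% and 2.25% of all genes). Myh2, the myosin of type 2A fibres, had 5146, 5477 and 8085 normalized counts in WT and 13849.6 and 25641 in mutant cells (1.63 ± 0.29 SE on the log2 scale, limma adjusted p = 0.0431). Myh4, the myosin of type 2B fibres, had 17657, 18199.5 and 14858 against 10916 and 11617 normalized counts (-0.58 ± 0.10 SE on the log2 scale, limma adjusted p = 0.0386). Acta1 and Mylpf, skeletal actin and a fast myosin light chain, had log2 fold changes of 0.00 and -0.11. Over all lists, limma called 4 of 143 tested genes, Met, Sdc3, Myh2 and Myh4, which is 2.80% and near the 2.23% of all genes. The DESeq2 Wald test called 17 of the 143, a share above its 5.34% of all genes, and edgeR 5 (2.25% of all genes). None of the mature fibre targets was called without WT replicate 1, WT replicate 2, mutant replicate 1 or mutant replicate 2. The count over all lists was 0 without WT replicate 1, 5 without WT replicate 2 and 8 without WT replicate 3. In these fits limma called 134, 203 and 335 of all genes in place of 404.

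**Figure D4:**
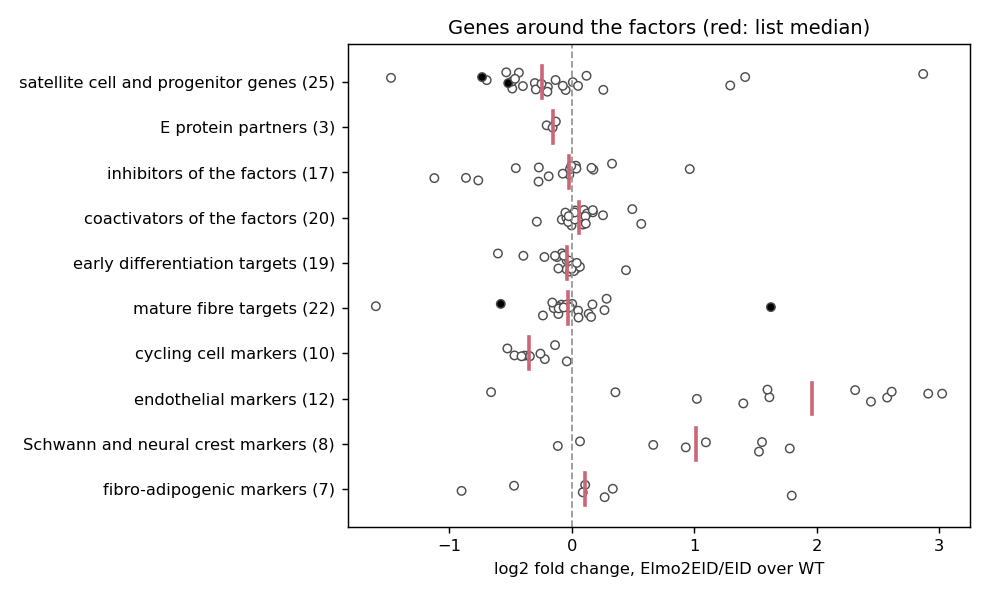
Log2 fold change of Elmo2EID/EID over WT (horizontal axis) for the tested genes of each list, with their number in parentheses and the list median in red. Filled points passed an adjusted p of 0.05 by limma, 2 among satellite cell genes and 2 among mature fibre targets, and the endothelial markers lie furthest to the right with a median of 1.96.

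Markers of other cells were read beside these results. Muscle genes from the marker list were high in every sample, with Des, Mymk, Ckm, Acta1 and Myh3 each at 23983 normalized counts or more. Of 12 endothelial markers 11 had a positive log2 fold change (0 called by limma, median 1.96, 9 at an unadjusted p under 0.05, 4 by DESeq2 and 1 by edgeR, against 15.2%, 5.34% and 2.25% of all genes), none was at 0, and the summed list was 846 to 2361 normalized counts in WT and 4369 to 6447 in mutant cells. Cdh5 and Eng, its most abundant genes per kb, had log2 fold changes of 2.31 and 1.02. Without WT replicate 2 limma called 4 of these markers among 203 genes in all, and without WT replicate 3 it called 1 among 335. The endothelial sum was lowest in WT replicate 2, the sample with the least Myf5 and the most Pax3. This was not particular to endothelial markers. The mean of log2 values centred per gene was lowest in that sample for the endothelial (-1.79), Schwann and neural crest (-1.31) and fibro-adipogenic (-0.90) lists. Of 8 Schwann and neural crest markers 7 had a positive log2 fold change (0 called by limma, median 1.01, 2 at an unadjusted p under 0.05, 0 by DESeq2 and 0 by edgeR, for which the shares of all genes just given hold here and for the lists that follow). Their sum, most of it Erbb3, was 16234 to 17149.6 in WT and 15661 to 16027 in mutant cells, and S100b was at 0 in WT replicate 2. Which cells the Erbb3 RNA came from was not tested. Ngfr and Erbb3, the most abundant per kb, had log2 fold changes of 1.53 and -0.11. The fibro-adipogenic markers summed to 12323 to 28177 and 13718 to 19388 normalized counts in WT and mutant cells (0 of 7 tested called by limma, median 0.11, 2 at an unadjusted p under 0.05, 1 by DESeq2 and 0 by edgeR), with Tcf21 at 0 in 4 samples, Lum at 0 in 3, and Col1a1 and Col3a1 at log2 fold changes of 0.33 and -0.90. All 10 cycling cell markers had a negative log2 fold change (0 called by limma, median -0.35, 4 at an unadjusted p under 0.05, 0 by DESeq2 and 0 by edgeR), with Top2a and Pcna at -0.53 and -0.04, and their sum was 4545 to 5743 in WT and 4354 to 4482 in mutant cells. S100b, Tcf21 and Lum were named because they were at 0. The part of these cells in the values of Pax7, Pax3 and Myf5 was not tested.

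The position of Pax7 was examined after its values were seen. Distances were taken between the lower coordinates of genes, which for Pax7, on the minus strand, is its 3′ end. Within 10 Mb of it, 19 of 294 other tested genes were called (6.46%, 7 higher and 12 lower), Sdc3 among them, against 2.23% of all genes. Within 2 Mb the count was 1 of 66. Around the other 8 factors, windows of 10 Mb held between 1.49% and 3.95% called genes. Within 2 Mb these factors had between 9 and 113 tested genes, with 3 of 14 called around Mef2c, 2 of 15 around Pax3 (both lower) and 3 of 113 around Myod1. The cause was not tested.

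**Figure D5:**
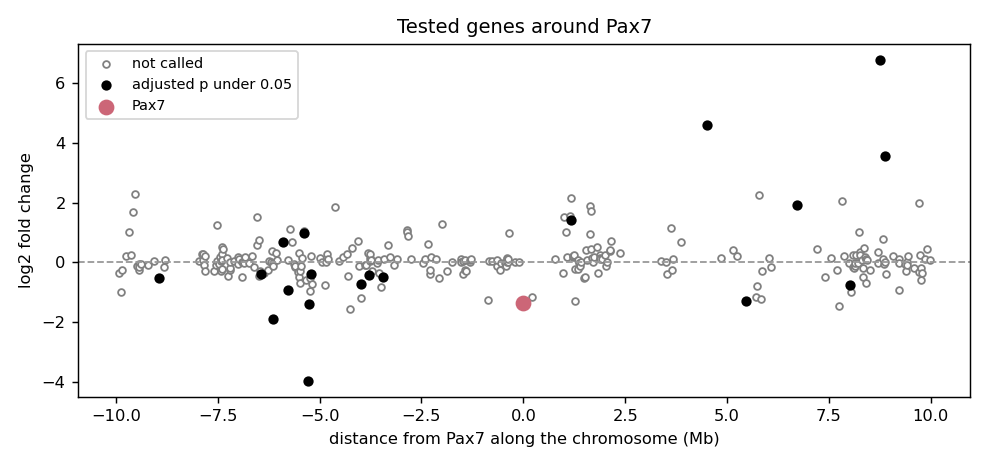
Log2 fold change of Elmo2EID/EID over WT (vertical axis) of the tested genes within 10 Mb of Pax7 by the distance between lower gene coordinates (horizontal axis, Mb). Filled points are the 19 called neighbours, 12 before and 7 after Pax7 (red) on the chromosome, with values on both sides of 0.

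Likeness to Myf5 and Pax7 was taken as the root mean square difference of log2(normalized count + 1), centred per gene, over the 5 samples, among 10793 other protein-coding genes whose mean was 100 or more. The profiles closest to Myf5 were those of Fgf5 (0.12), a growth factor, Rtl3 (0.14) and Zbtb16 (0.14), a zinc finger repressor, with Zbtb16 at 1372, 1169.9 and 1759 normalized counts in WT and 2195 and 2291 in mutant cells. Closest to Pax7 were Psrc1 (0.06), Antxr1 (0.08) and Mcpt8 (0.10), with Psrc1 at 408, 448 and 378 against 177 and 141 normalized counts. They share the samples and size factors of the factors they follow, and likeness over 5 samples in 2 groups mostly restates the difference between the groups.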

How the data were processed

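Poly-A RNA of 5 cultures was sequenced as read pairs on a stranded library. Per the labels and methods, STAR 2.5.1b aligned the reads to GRCm38 and featureCounts 1.4.6 counted unique, reverse-stranded reads. The authors deposited the signal that results when counts are scaled by DESeq2 1.34.0 size factors. The smallest positive value of a library was taken as 1 read, and 100.0% of positive values were then whole numbers to within 0.01. Identifiers were matched to GENCODE M21 (54165 of 54232). The main test was limma 3.58.1 (R 4.3.3) with a mean-variance trend on log2(normalized count + 1), two-sided, over 18156 genes that reached 5 normalized counts in any sample. P-values were adjusted by Benjamini-Hochberg over all of them, with a threshold of 0.05. Fold changes are on this scale, which understates those of low genes. EdgeR 4.0.16 and DESeq2 1.42.0 were alternatives on recovered reads, and the scripts were tested on simulated counts. The members and lists were chosen with earlier results of these data known. Named were the 9 factors, each called gene of a list, otherwise its 2 most abundant genes per kb, and the 3 profiles closest to Myf5 and Pax7. Myoblast markers were read for the check of the cell type. Other genes were named after their values were seen, including Snai2, S100b, Tcf21 and Lum. Replicate pairs differed by more than sampling noise (chi-square per degree of freedom 24.2 to 34.4). Figures were drawn with matplotlib 3.10.9.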

Additional observations from a re-analysis of the deposited data

How the results depend on the processing

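The paired analysis shares only replicate numbers: the difference between replicates 1 and 2 had a correlation of -0.24 between the genotypes across 13769 genes, which are not independent replicates, so same-numbered samples did not deviate together. With the replicate block, limma called 224 genes in place of 404, 2 factors in place of 1 and 7 genes of the other lists in place of 4. The 2 factors were Pax7 and Myf5, the latter at a log2 fold change of 0.99 and an adjusted p of 0.0490 by limma. In this fit WT replicate 3 has no partner, so it adds nothing to the difference between genotypes. The log2 fold changes of Pax7 (-1.41) and Myf5 (0.99) were therefore those without WT replicate 3. Leaving that sample out gave 335 genes, 1 factor and 8 genes of the other lists. The count of all genes was 155 with no filter on low values, 244 with a mean of 50 or more, 144 without the trend and 969 with the DESeq2 Wald test. The count of factors was 0 without the trend and 3 with DESeq2. That of the other lists was 0, 2, 0 and 17 under the same 4 settings. Pax7 stayed at -1.35 without the trend but lost its call, and DESeq2 called Pax3 at -2.87 and Mef2a at -0.26. The late minus early index differed by 0.16 without the 3 least abundant factors and by 0.012 as a ratio of sums. With each sample left out in turn, between 34 and 335 genes, 0 and 1 factors and 0 and 8 genes of the other lists were called. The log2 fold change then ran from -1.59 to -1.12 for Pax7, -2.81 to -2.04 for Pax3, 0.49 to 0.99 for Myf5, -0.19 to -0.13 for Myod1, 0.06 to 0.14 for Myog, 0.15 to 0.42 for Myf6, -0.30 to -0.22 for Mef2a, -0.13 to 0.014 for Mef2c and -0.17 to 0.027 for Mef2d, and the index difference from 0.76 to 0.90. Only Mef2c (without WT replicate 2) and Mef2d (without Elmo2EID/EID replicate 2) changed sign. Other pseudocounts, TMM size factors, quantile normalization and edgeR changed no call of a factor. Pax3 was not tested where a mean of 50 was asked. Where 1 mutant sample was left, it was assumed to vary like the WT samples. Apart from the smaller number of samples or genes, the causes were not tested.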

Other observations

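The fourth member of the Mef2 family, Mef2b, was low, with 11.5, 3.37 and 6.22 normalized counts in WT and 10.7 and 8.07 in Elmo2EID/EID (mutant) samples. Calcr, the calcitonin receptor of quiescent satellite cells, was at 0 in 4 samples and at 1 read in WT replicate 2, while Pax7 was between 298 and 942 normalized counts in the same samples. Vgll2, a muscle cofactor of TEAD and Mef2 factors, had 1940.2, 1967 and 1458 normalized counts in WT and 2059.6 and 3347 in mutant cells, where it and Myf6 were highest in the same sample, Elmo2EID/EID replicate 2. Pvalb, a calcium buffer of fast fibres, had 917, 2334 and 1002 normalized counts in WT and 532 and 339 in mutant cells, a log2 fold change of -1.60 that did not pass (limma adjusted p = 0.119). These genes were chosen after their values were seen.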
